A study of Mus musculus with 10 samples.

Results

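The NF-kappaB genes described here are 10 genes of 1 signalling system: the subunits Rela, Rel, Relb, Nfkb1 and Nfkb2, the nuclear IkappaB proteins Bcl3 and Nfkbiz, the cytoplasmic inhibitors Nfkbia and Nfkbie, and the feedback enzyme Tnfaip3. They were taken by name, and 9 of the 10 had a listed probe set, among 18193 genes tested. Nfkb1 was not analysed here. Each gene is represented by whichever of its probe sets was brightest on average over the 10 arrays, and its other probe sets serve as a check.

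RNA of mouse bone marrow cells was measured on 10 arrays, each from a separate transduction. All cells came from C57BL/6 mice 5 to 6 weeks old, were depleted of lineage-positive cells, selected for Sca1 and cultured with IL-3, IL-6 and SCF. They were transduced in 2 rounds with a MigR1 retrovirus, which marks cells with GFP, and 48 hours after the second round 25000 live cells that were lineage negative, positive for Sca1 and cKit and positive for GFP were sorted per sample. The virus of the GFP group carried no other gene (3 arrays). That of the AML1/ETO group carried the fusion protein of acute myeloid leukaemia that joins the DNA-binding part of RUNX1 to ETO (3 arrays), and that of the W692A group carried AML1/ETO with the W692A substitution in the MYND domain of ETO, the part that contacts the corepressors SMRT and N-CoR (4 arrays). All 3 groups are thus cells in cytokine culture that carry a retrovirus, in which the proteins are made from a viral promoter and not from the leukaemic locus. Whether the samples came from different mice is not stated, so p-values measure the spread between transductions, which may share mice.

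NF-kappaB is a family of dimeric transcription factors. In resting cells the dimers are held in the cytoplasm by IkappaB proteins such as the products of Nfkbia and Nfkbie, and signals from tumour necrosis factor, interleukin-1 or Toll-like receptors activate a kinase complex that marks these inhibitors for destruction. Freed dimers enter the nucleus and bind kappaB sites, and among the genes they are known to switch on are their own inhibitors, Nfkbia and Tnfaip3, which end the response. Bcl3 and Nfkbiz proteins stay in the nucleus, where they join DNA-bound subunits and raise or lower the transcription of selected targets. In blood progenitors the pathway is known for its part in inflammatory signalling and in emergency production of myeloid cells.

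Because several of these genes are themselves NF-kappaB targets, and because AML1/ETO binds DNA through the RUNX1 part of the fusion, the 250 bases upstream of each annotated start were read from RefSeq (build GRCm38.p6) and searched on both strands for the kappaB consensus and for the RUNX motif TGTGGT. Starts were found for 7 of the 10 genes (10 starts); Nfkb1, Relb and Nfkbiz had no entry. A kappaB match was present at 7 of the 10 starts, in 5 of 7 genes (Nfkb2, Nfkbia, Nfkbie, Rel and Tnfaip3), and 3.9% of all 32851 starts of the same length held one. The RUNX motif was present at 1 of the 10 starts, that of Rel, and at 14.0% of all starts. The upstream regions of 5 genes whose signal differed between groups are shown 5′ to 3′ in the direction of the gene, ending at the base before the start. Capitals mark the matches, and overlapping kappaB matches appear as 1 block. In Nfkbia, Nfkbie and Tnfaip3 the capitals are kappaB matches. In Rel the first block is the RUNX motif and the second holds 2 overlapping kappaB matches. Bcl3 has no capitals because neither motif was found in this window. A match is a run of letters, and binding was not measured.
Bcl3, chr7:19822756-19823005, minus strand: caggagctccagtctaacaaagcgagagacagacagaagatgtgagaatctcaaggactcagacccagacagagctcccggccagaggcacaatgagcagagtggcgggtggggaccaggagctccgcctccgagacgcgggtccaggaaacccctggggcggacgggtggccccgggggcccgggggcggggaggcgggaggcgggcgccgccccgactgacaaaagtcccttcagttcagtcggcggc
Nfkbia, chr12:55492648-55492897, minus strand: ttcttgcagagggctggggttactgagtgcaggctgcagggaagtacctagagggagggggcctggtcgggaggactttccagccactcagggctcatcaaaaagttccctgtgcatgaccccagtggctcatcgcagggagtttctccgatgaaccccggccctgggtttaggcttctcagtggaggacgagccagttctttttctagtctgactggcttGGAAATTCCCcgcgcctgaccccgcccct
Nfkbie, chr17:45555450-45555699, plus strand: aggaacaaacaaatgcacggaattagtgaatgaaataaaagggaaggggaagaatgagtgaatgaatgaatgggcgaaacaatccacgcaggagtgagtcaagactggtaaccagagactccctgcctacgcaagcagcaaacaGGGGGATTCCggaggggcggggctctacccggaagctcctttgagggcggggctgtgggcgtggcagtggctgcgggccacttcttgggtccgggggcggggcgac
Tnfaip3, chr10:19015411-19015660, minus strand: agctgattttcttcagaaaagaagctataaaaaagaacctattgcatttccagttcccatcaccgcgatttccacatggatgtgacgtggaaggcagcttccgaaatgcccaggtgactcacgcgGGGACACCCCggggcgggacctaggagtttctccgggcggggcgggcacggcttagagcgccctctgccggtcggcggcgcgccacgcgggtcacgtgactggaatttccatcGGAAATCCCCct
Rel, chr11:23770970-23771219, minus strand: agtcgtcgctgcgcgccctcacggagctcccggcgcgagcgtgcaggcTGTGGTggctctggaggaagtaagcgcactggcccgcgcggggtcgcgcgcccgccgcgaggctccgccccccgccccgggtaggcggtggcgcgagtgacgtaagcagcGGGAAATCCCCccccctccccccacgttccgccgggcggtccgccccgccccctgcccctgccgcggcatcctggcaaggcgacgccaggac
In the Nfkbia region the match lies 29 to 20 bases upstream of the start, and in the Tnfaip3 region 1 match lies 12 to 3 bases upstream. Rela, not shown, also held neither motif.

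Values are log2 array signals after RMA, a method that brings the probe signals of all arrays to 1 distribution and then summarises them per probe set. The summarised values need not share 1 distribution. Subtracting array medians moved the median AML1/ETO difference from GFP over all genes from -0.02 to -0.07. Signals of different probe sets are not comparable as levels, so each gene is compared only with itself. The background bound was 2.04, the brightest signal of bacterial control probe sets on any array, and 8 of the 9 genes lay above it on all 10 arrays. Within groups the arrays correlated at 0.984 to 0.992 over genes above the bound, and between groups at 0.892 to 0.965. The 3′ probe set of the Gapdh control exceeded the 5′ one, a gap that widens as RNA is shorter when labelled, and the gap ran from 4.83 to 4.99 with GFP, 4.01 to 5.04 with AML1/ETO and 3.81 to 4.17 with W692A. Of 9 measured stem and progenitor markers 8 had a group mean above the bound, and their list mean ran from 4.33 to 4.45 with GFP, 5.98 to 6.04 with AML1/ETO (7 genes higher and 1 lower than with GFP) and 5.24 to 5.49 with W692A (6 higher, 1 lower). Kit, whose protein was used in the sort, stayed under the bound in every group, and Ly6a (Sca1) is not analysed here. Group means were below the bound for 5 of 6 B-cell markers and 6 of 7 T and NK-cell markers, among them Cd79a, Pax5, Cd3e and Cd8a. The exceptions lay well above it with GFP, AML1/ETO and W692A, Cd79b at 5.69, 5.81 and 5.38 and Nkg7 at 6.54, 5.14 and 5.39. Of 10 neutrophil markers 9 were above the bound, with list means of 4.17 to 4.62, 3.78 to 4.64 and 3.77 to 4.22, and with each construct 2 were higher and 5 lower than with GFP. Over 9 monocyte and macrophage markers, 6 of them above the bound, the list mean ran from 3.69 to 3.85 with GFP, 4.40 to 4.62 with AML1/ETO and 4.23 to 4.42 with W692A, and Cx3cr1, Ccr2 and Itgam were below the bound in all groups. With AML1/ETO 4 of these markers were higher and 1 was lower than with GFP, and with W692A 4 were higher and 0 lower. Over 6 mast cell and basophil markers the list mean ran from 4.03 to 4.72 with GFP, 6.18 to 7.24 with AML1/ETO and 5.10 to 5.40 with W692A. Against GFP 4 of the 6 were higher with AML1/ETO and 3 with W692A, and 0 were lower. Between the constructs W692A was lower for 5 mast cell and basophil, 6 stem and progenitor, 3 monocyte and 2 neutrophil markers, and higher for 1 monocyte marker. In sorted bulk RNA, fewer cells of a type and less RNA per cell cannot be told apart, and the part of these markers in the results that follow was not tested.

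With AML1/ETO, Bcl3, Nfkbia and Nfkbie fell against GFP and Rela rose. Differences were tested with limma over all 18193 genes and called at an adjusted p below 0.05. Of the 9 genes 1 rose, 3 fell and 5 did not pass, where 28.6% of all genes passed, 12.9% as higher and 15.8% as lower. The median log2 difference of the 9 genes was 0.04, against -0.02 over all genes, and the median size of the difference without its sign was 0.50 against 0.19. Shares and medians over all genes include dim ones, as 8820 of the 18193 genes had a group mean above the bound. Without the 40% dimmest genes, 5135 of 10916 genes passed for AML1/ETO against GFP (2255 higher, 2880 lower). The 4 of 9 called here were near that share. For W692A against GFP 2746 of the 10916 passed (1052 higher, 1694 lower), and between the constructs 3810 (1809 higher, 2001 lower). With W692A, Rel, Relb, Nfkbie and Tnfaip3 fell against GFP. In this comparison 0 of the 9 genes rose, 4 fell and 5 did not pass, where 14.5% of all genes passed, 5.45% as higher and 9.07% as lower. The called genes split into 37.5% higher, and into 48.3% higher after further quantile normalization. The median log2 difference was -0.42, against 0.01 over all genes. Both comparisons use the same GFP arrays. In the direct comparison of W692A with AML1/ETO, 1 gene was higher (Bcl3), 5 were lower (Rel, Rela, Relb, Nfkbiz and Tnfaip3) and 3 did not pass, where 20.7% of all genes passed, 9.61% as higher and 11.1% as lower. The called genes split into 46.4% higher, and into 56.9% higher with the array median subtracted. The median was -0.47, against 0.03 over all genes. Of the 9 genes, Tnfaip3, Rel and Relb were thus lower with W692A than with either other group, while Bcl3 was lower with AML1/ETO than with either other group.

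**Figure D1:**
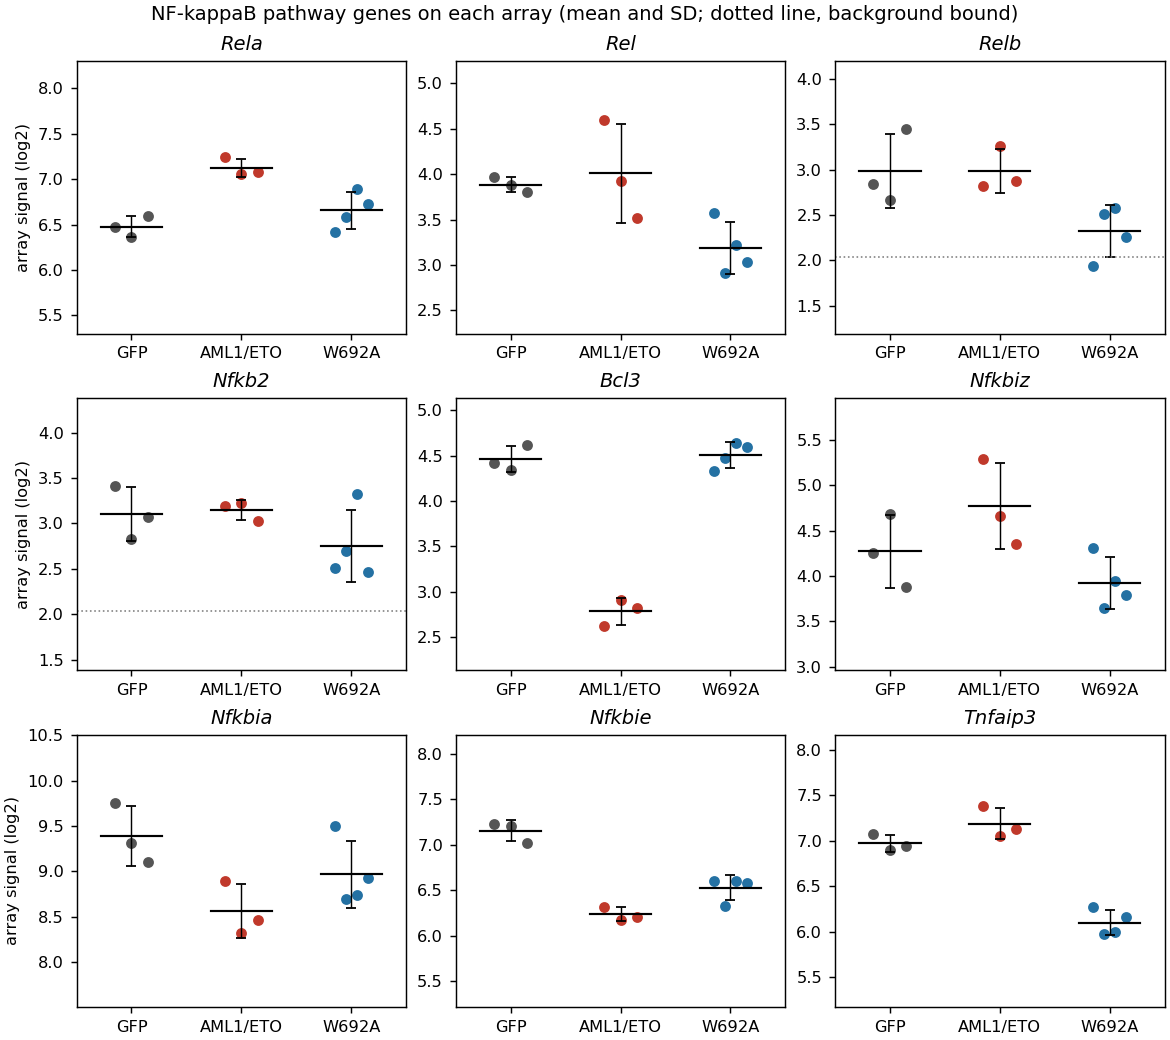
Log2 array signal of the 9 genes on each array (points) by group, with the group mean (line) and SD (bar); every panel spans 3 log2 units, and the dotted line is the background bound of 2.04. Bcl3 was low on the 3 AML1/ETO arrays (2.62 to 2.91) and Tnfaip3 on the 4 W692A arrays (5.97 to 6.27).

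Bcl3, the nuclear IkappaB protein that pairs with dimers of the Nfkb1 and Nfkb2 products, showed the largest difference among the 9 genes. Its signal was 4.42, 4.34 and 4.62 on the GFP arrays, 2.62, 2.91 and 2.82 on the AML1/ETO arrays, and 4.33, 4.47, 4.64 and 4.60 on the W692A arrays. All AML1/ETO arrays lay below all others, and the GFP and W692A arrays overlapped. The means were 4.46 ± 0.141 (SD, n = 3), 2.79 ± 0.148 (n = 3) and 4.51 ± 0.142 (n = 4). Bcl3 was 3.20-fold lower with AML1/ETO than with GFP (-1.68 ± 0.130 on the log2 scale, SE, limma adjusted p = 1.64e-07). It was 3.31-fold higher with W692A than with AML1/ETO (log2 difference 1.72 ± 0.122, limma adjusted p = 1.68e-07). Between W692A and GFP the difference was 0.05, with a 95% interval of -0.21 to 0.31 (limma adjusted p = 0.865), an interval that does not reach the change seen with AML1/ETO. Over the 22 alternative analyses of each comparison, the difference with AML1/ETO ran from -1.74 to -1.52 and passed in all 22, and that between the constructs ran from 1.62 to 1.80 and passed in all 22. Bcl3 had 1 probe set, so no other probe set could be compared.

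The array profile of Bcl3 was compared with 8819 other genes, those brighter than the bound on average in 1 group or more, by the root mean square difference of centred log2 values over the 10 arrays. The 5 nearest genes were Rangrf (0.153), Grwd1 (0.209), Prag1 (0.220), Nsmce1 (0.220) and Pold2 (0.222), where the median over all ranked genes was 0.815. Rangrf had signals of 5.76 to 5.85 with GFP, 3.92 to 4.10 with AML1/ETO and 5.50 to 5.69 with W692A. None of the NF-kappaB genes was among the 5. The nearest of them was Nfkbie (0.620), at rank 1538, followed by Nfkbia (0.668) at rank 2106.

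Nfkbiz, the inducible nuclear IkappaB protein needed for a later wave of inflammatory genes such as Il6, did not follow Bcl3. Its signal was 4.26, 4.68 and 3.87 with GFP, 5.29, 4.66 and 4.36 with AML1/ETO, and 4.31, 3.65, 3.95 and 3.79 with W692A. Each W692A array lay below each AML1/ETO array, and the GFP arrays overlapped with both groups. W692A was 1.79-fold lower than AML1/ETO (-0.84 ± 0.224 on the log2 scale, SE, limma adjusted p = 0.0136). This call was lost without AML1/ETO replicate 1 (adjusted p = 0.0873), with the spike-in signal as a covariate (0.0951), with values under the bound raised to it (0.114) and with the mean of its 3 probe sets (difference -0.41, 0.143). Raising values to the bound left the difference itself at -0.84. Against GFP the differences were 0.50 with AML1/ETO (95% interval -0.02 to 1.01, limma adjusted p = 0.155) and -0.35 with W692A (-0.83 to 0.13, 0.377). The first passed without AML1/ETO replicate 3 (difference 0.70, adjusted p = 0.0492) and with the mean of the probe sets (0.61, 0.0313). All 3 Nfkbiz probe sets had positive differences for AML1/ETO against GFP and negative ones for W692A against AML1/ETO, and their signs differed for W692A against GFP. The dimmest lay below the bound on all 3 GFP arrays and was called higher with AML1/ETO, at least 1.51-fold (limma adjusted p = 0.00114). It was also called higher with W692A (0.0239), but 1 of the 4 W692A arrays was below the bound as well, and with values raised to the bound the difference was 0.26.

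The cytoplasmic inhibitors Nfkbia and Nfkbie fell with AML1/ETO. Nfkbia encodes IkappaB alpha, the main inhibitor of Rela-containing dimers. On the GFP arrays its signal was 9.75, 9.32 and 9.10, on the AML1/ETO arrays 8.90, 8.33 and 8.47, and on the W692A arrays 9.50, 8.70, 8.74 and 8.93. The AML1/ETO arrays lay below the GFP arrays, and the W692A arrays overlapped with both. Nfkbia was 1.77-fold lower with AML1/ETO than with GFP (log2 difference -0.83 ± 0.218, SE, limma adjusted p = 0.00875). This call was lost without GFP replicate 1 (difference -0.65, adjusted p = 0.0566) and when values under the bound were raised to it before the fit, which left the difference as it was (0.0791). W692A differed from GFP by -0.42 (95% interval -0.86 to 0.01, limma adjusted p = 0.210) and from AML1/ETO by 0.41 (-0.03 to 0.84, 0.205), so that neither comparison passed. W692A against GFP passed without W692A replicate 1 (difference -0.60, adjusted p = 0.0374), and W692A against AML1/ETO passed with the mean of the 5 probe sets (0.64, 0.00716).

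Nfkbia had 5 probe sets, and all 5 were lower with AML1/ETO than with GFP, by -1.41 to -0.83, each with an adjusted p under the threshold when every probe set of the array was tested. With W692A all 5 differences from GFP were negative (-0.89 to -0.06), and 1 of them passed. Between W692A and AML1/ETO all 5 were positive (0.41 to 1.05) and 3 passed. The probe set with the smallest SD over the GFP arrays (0.0577), singled out after its values were seen, was 8.43, 8.33 and 8.33 with GFP, 7.63, 7.41 and 7.33 with AML1/ETO, and 8.26, 8.07, 8.24 and 8.11 with W692A. On that probe set the W692A arrays stood apart from the AML1/ETO arrays (difference 0.72 ± 0.110, SE, limma adjusted p = 0.000350), which the brightest probe set, with more spread, did not show.

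Nfkbie, which encodes IkappaB epsilon, an inhibitor of Rela and Rel dimers, was lower with either construct than with GFP. Its signal was 7.23, 7.21 and 7.02 with GFP, 6.32, 6.18 and 6.21 with AML1/ETO, and 6.60, 6.32, 6.60 and 6.58 with W692A. The 3 groups did not overlap, with GFP highest and AML1/ETO lowest, although W692A replicate 2 (6.322) came within the second decimal of AML1/ETO replicate 1 (6.320). With AML1/ETO Nfkbie was 1.89-fold lower than with GFP (log2 difference -0.92 ± 0.121, SE, limma adjusted p = 3.10e-05), a call kept in all 22 alternatives. With W692A it was 1.54-fold lower (-0.63 ± 0.114, limma adjusted p = 0.00159), a call lost in 1 of 22, when the Gapdh gap entered the fit as a covariate (-0.71, 0.0865). The constructs differed by 0.29 (95% interval 0.05 to 0.54), which did not pass (limma adjusted p = 0.0873) but did without W692A replicate 2 (0.36, adjusted p = 0.0378), with array weights (0.0470), after further quantile normalization (0.0430) and after subtracting the array median (0.0309). The other Nfkbie probe set was 2.88-fold lower with AML1/ETO than with GFP (limma adjusted p = 0.000417) and at least 2.17-fold lower with W692A, where 1 of 4 arrays was below the bound (0.00573).

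**Figure D2:**
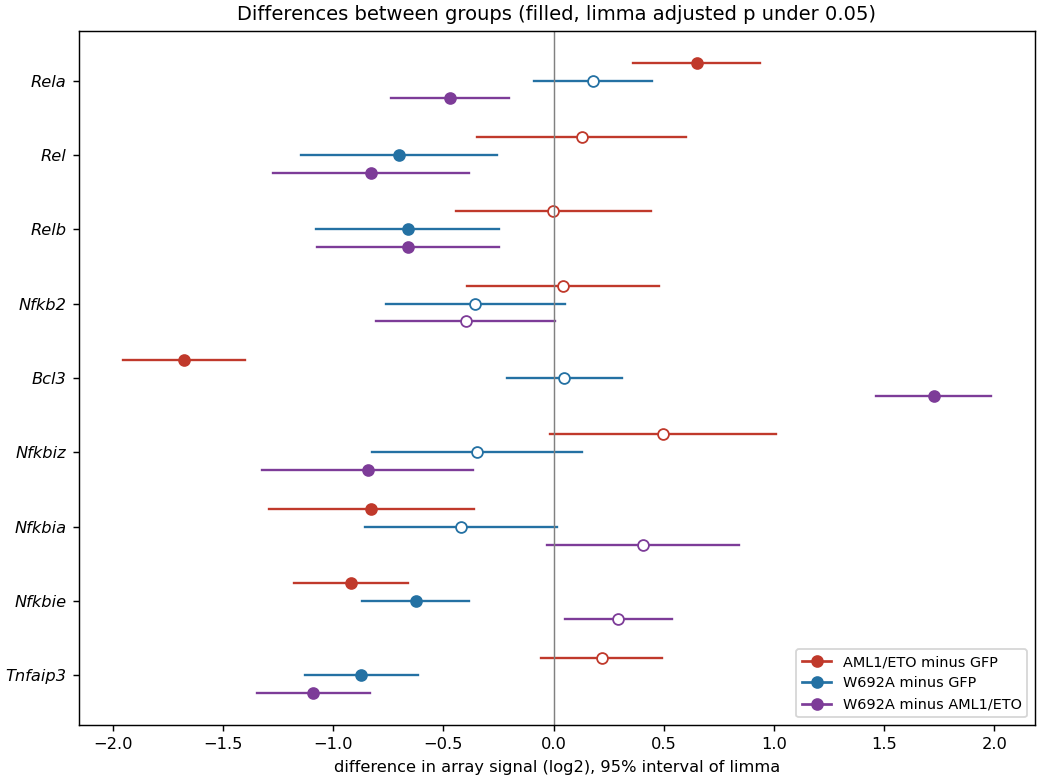
Log2 difference in array signal of each gene in 3 comparisons (colours) with the 95% interval of the limma fit; filled points have an adjusted p under 0.05 over all genes. Bcl3 lay at -1.68 with AML1/ETO and at 0.05 with W692A against GFP, and Tnfaip3 at 0.22 and -0.87.

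Tnfaip3 encodes A20, a ubiquitin-editing enzyme that shuts down the signal from tumour necrosis factor and Toll-like receptors. It was measured at 7.07, 6.89 and 6.95 with GFP, at 7.38, 7.05 and 7.13 with AML1/ETO, and at 6.27, 5.97, 6.00 and 6.16 with W692A. All W692A arrays lay below all others, and the GFP and AML1/ETO arrays overlapped. Tnfaip3 was 1.83-fold lower with W692A than with GFP (log2 difference -0.87 ± 0.120, SE, limma adjusted p = 0.000160) and 2.13-fold lower than with AML1/ETO (-1.09 ± 0.120, limma adjusted p = 1.28e-05). Each call was kept in all 22 alternatives of its comparison. With the mean of its probe sets the differences shrank to -0.41 and -0.44, since the other Tnfaip3 probe set lay below the bound on all 10 arrays. AML1/ETO against GFP differed by 0.22 (95% interval -0.06 to 0.49, limma adjusted p = 0.262).

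Among the subunits, Rela, the transactivating p65 subunit found in most cells, rose with AML1/ETO. Its signal was 6.47, 6.36 and 6.60 with GFP, 7.24, 7.06 and 7.08 with AML1/ETO, and 6.42, 6.58, 6.89 and 6.73 with W692A. The AML1/ETO arrays lay above all others, and the W692A arrays overlapped with GFP. Rela was 1.57-fold higher with AML1/ETO than with GFP (log2 difference 0.65 ± 0.135, SE, limma adjusted p = 0.00159), a call kept in all 22 alternatives. W692A lay 1.39-fold below AML1/ETO (-0.47 ± 0.126, limma adjusted p = 0.0143), a call lost without AML1/ETO replicate 1 (adjusted p = 0.0723). W692A against GFP differed by 0.18 (95% interval -0.09 to 0.45, limma adjusted p = 0.428). Rela thus rose in the group in which Nfkbia and Nfkbie both fell, while Nfkbie also fell with W692A, where Rela did not pass.

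Rel, the c-Rel subunit of lymphoid and myeloid cells, was lowest with W692A. It was measured at 3.97, 3.88 and 3.80 with GFP, at 4.59, 3.92 and 3.52 with AML1/ETO, and at 3.57, 2.92, 3.22 and 3.03 with W692A. AML1/ETO arrays were spread over more than the gap between groups (SD 0.544, against 0.0831 with GFP), and their lowest array fell within the W692A range. Rel was 1.62-fold lower with W692A than with GFP (log2 difference -0.70 ± 0.208, SE, limma adjusted p = 0.0349) and 1.77-fold lower than with AML1/ETO (-0.83 ± 0.208, limma adjusted p = 0.00966). The first call was lost without any 1 of 6 arrays (GFP replicates 1, 2 and 3 and W692A replicates 2, 3 and 4, adjusted p = 0.0567 to 0.123), after further quantile normalization (0.0726) and with values under the bound raised to it (0.188), and with the Gapdh covariate its difference was -1.39. The second was lost without AML1/ETO replicate 1 (difference -0.54, adjusted p = 0.0554) and with values under the bound raised to it (0.0896). Rel lay above the bound on every array, so raising values left both of its differences as they were and changed only the SE. AML1/ETO against GFP differed by 0.13 (95% interval -0.35 to 0.60, limma adjusted p = 0.770).

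Relb, a subunit of the slower, noncanonical branch of the pathway, gave dim signals. They were 2.85, 2.66 and 3.45 with GFP, 2.82, 3.26 and 2.87 with AML1/ETO, and 1.94, 2.51, 2.58 and 2.26 with W692A, of which 3 of 4 exceeded the bound. The W692A arrays lay below all others. With the value under the bound raised to it, Relb was at least 1.55-fold lower with W692A than with GFP and at least 1.55-fold lower than with AML1/ETO. Both comparisons passed in the main fit, on values not raised. The log2 differences there were -0.66 ± 0.194 (SE, limma adjusted p = 0.0328) and -0.66 ± 0.194 (limma adjusted p = 0.0240). These calls rested on few arrays. The first was lost without GFP replicate 1 or 3 or W692A replicate 1 or 4 (adjusted p = 0.0614 to 0.158), and the second without AML1/ETO replicate 2 or W692A replicate 1 or 4 (0.0577 to 0.130). Both were also lost after further quantile normalization (0.0794 and 0.0613) and with values under the bound raised to it (0.166 and 0.132), and the first with the Gapdh covariate (-0.80, 0.316).

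Nfkb2, the p100 precursor that Relb partners with, did not pass in any comparison. Its signal was 3.42, 2.83 and 3.08 with GFP, 3.19, 3.23 and 3.02 with AML1/ETO, and 2.51, 2.70, 3.33 and 2.46 with W692A. The groups overlapped, with W692A replicate 3 standing above the other W692A arrays. The differences were 0.04 for AML1/ETO against GFP (95% interval -0.39 to 0.48), -0.36 for W692A against GFP (-0.76 to 0.05) and -0.40 for W692A against AML1/ETO (-0.81 to 0.01), with limma adjusted p of 0.922, 0.267 and 0.179. Without W692A replicate 3 the differences of W692A from GFP and from AML1/ETO were -0.55 and -0.59 and passed (limma adjusted p = 0.0254 and 0.0114), and the latter passed with the spike-in covariate (-0.67, 0.0134).

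**Figure D3:**
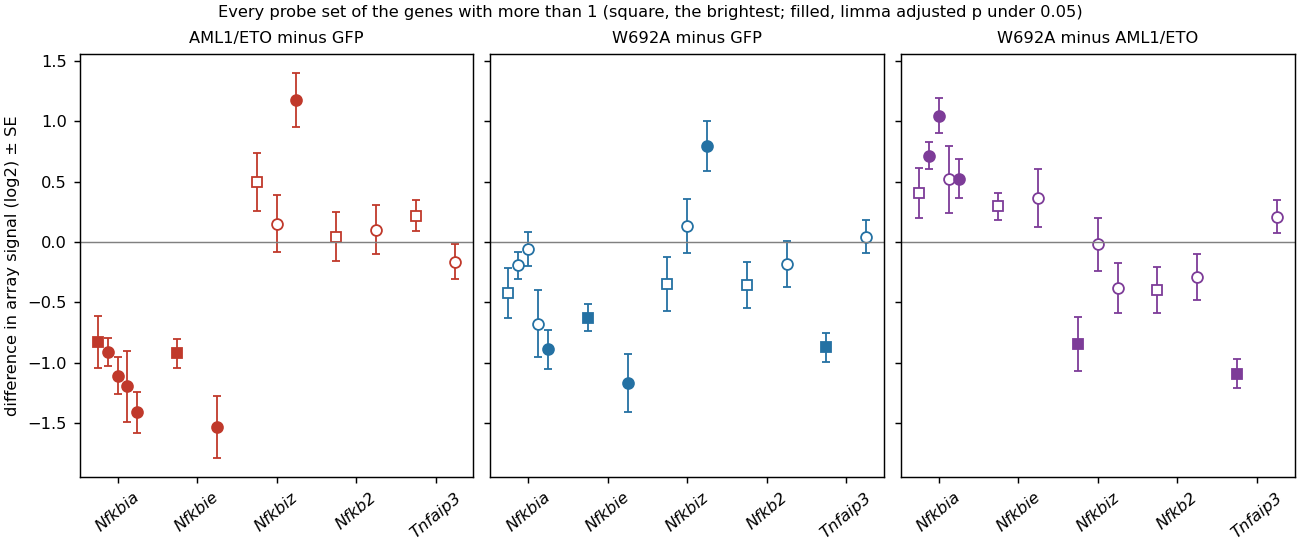
Log2 difference in array signal with its standard error for every probe set of the 5 genes that have more than 1, in each comparison; squares are the brightest probe set of a gene and filled symbols have an adjusted p under 0.05. All 5 Nfkbia probe sets lay below 0 for AML1/ETO against GFP, whereas those of Nfkbiz lay on both sides of 0 for W692A against GFP, the highest of them from a probe set below the bound on all GFP arrays.

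Other genes of the pathway were read from 4 lists. Among 25 measured receptors and ligands, 11 rose and 3 fell with AML1/ETO, or 44.0% and 12.0% where 12.9% and 15.8% of all genes did, and the list's median log2 difference was 0.30. Of these, 2 that rose (Tlr3 and Tlr6) and 1 that fell (Tnfsf11) had all group means below the bound. Genes that rose included the interleukin-1 genes Il1b (8.19-fold, 3.03 ± 0.361 on the log2 scale, SE) and Il1a (at least 2.84-fold, all GFP arrays below the bound) and in Cd14, the lipopolysaccharide co-receptor (7.07-fold, 2.82 ± 0.296). Il1r1, the signalling receptor of interleukin-1, fell 6.71-fold (-2.75 ± 0.154), and Ltb, a lymphotoxin subunit, fell at least 3.52-fold. Limma adjusted p of these 5 genes were at most 1.11e-05. Tnf itself lay below the bound in all 3 groups (means of 1.69, 1.68 and 1.73). With W692A 2 of the 25 rose against GFP and 3 fell (8.0% and 12.0%, where 5.45% and 9.07% of all genes did). Those that rose were Il1b (2.50-fold, limma adjusted p = 0.0158) and Cd14 (2.66-fold, 0.00278). Il1r1 (7.43-fold, 5.92e-09) and Ltb (1.98-fold, 0.000704) were among the 3 that fell, the other being Tnfsf11, below the bound in all groups. W692A was lower than AML1/ETO for 10 of the 25 (40.0%, where 11.1% of all genes were). It was higher for 1, Ltb (at least 1.78-fold), or 4.0% where 9.61% of all genes were. Among the 10 were Il1a (at least 2.84-fold), Tnfrsf13c, the BAFF receptor (at least 3.70-fold), and Il1rap, the co-receptor of Il1r1 (4.05-fold). Cd14 is also one of the monocyte markers, and without it the mean of the other 8 ran from 3.79 to 3.89 with GFP, 4.27 to 4.38 with AML1/ETO and 4.17 to 4.35 with W692A, with Mrc1 and Cd68 lower on average with either construct than with GFP. The calls of Il1b and Cd14 with W692A were lost with the Gapdh covariate (differences 0.06 and 0.37, adjusted p = 0.986 and 0.782) and with values under the bound raised to it (0.157 and 0.0642), and that of Il1b without GFP replicate 2 or 3 (0.0596 and 0.0571). With the mean of their probe sets the differences of Il1r1 were -1.55 with AML1/ETO and -1.56 with W692A, and that of Il1rap was -0.71, and with the Gapdh covariate that of Ltb with W692A was -1.51.

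Adaptors and kinases carry the signal from receptors to the IkappaB kinase complex. Of 23 measured, 2 rose and 2 fell with AML1/ETO (8.7% each, where 12.9% and 15.8% of all genes did), with a median of -0.01. Rnf31, the catalytic subunit of the linear ubiquitin ligase, rose at least 1.77-fold (limma adjusted p = 0.000346), and Ikbkg, the NEMO subunit of the kinase complex, rose by 0.49 on the log2 scale (0.00857). Traf2, an adaptor of tumour necrosis factor receptors, fell 1.95-fold (0.000259), and Rbck1, the HOIL-1 partner of Rnf31, fell 1.45-fold (0.0130). With W692A 0 rose and 3 fell (13.0%), where 5.45% and 9.07% of all genes did. The 3 were Malt1, the paracaspase (1.66-fold, limma adjusted p = 0.0403), Traf2 (1.58-fold, 0.00787) and Map3k7, the TAK1 kinase (1.46-fold, 0.00407). W692A was lower than AML1/ETO for 6 of 23 (26.1%) and higher for 0, where 11.1% and 9.61% of all genes were. Among the 6 were Malt1 (1.70-fold, limma adjusted p = 0.0237), Rnf31 (at least 1.60-fold, 0.00293) and Tbk1, a kinase of the interferon pathway (1.48-fold, 0.00650). Of the calls with AML1/ETO, Ikbkg was lost with the mean of its probe sets (adjusted p = 0.344) and with the Gapdh covariate (0.198), and Rbck1 with either the Gapdh (0.179) or the spike-in covariate (0.165) and without AML1/ETO replicate 1 (0.0699). Of those with W692A, Traf2 was lost without GFP replicate 1 (0.0526) and Map3k7 with the Gapdh covariate (0.453) or the mean of its probe sets (0.249), while Malt1 was lost against GFP without any 1 of 5 arrays (GFP replicates 1 and 2 and W692A replicates 1, 2 and 4, 0.0761 to 0.143) and against AML1/ETO without AML1/ETO replicate 1 or W692A replicate 1 or 4 (0.0598 to 0.134). Malt1 was also lost against GFP with the mean of its probe sets (0.101), quantile normalization (0.0876) and values raised to the bound (0.214), and against AML1/ETO with values raised to the bound (0.152), while with the Gapdh covariate the differences from GFP were -1.37 for Malt1 and -1.08 for Traf2, which was lost with values raised to the bound (0.0560). The spike-in covariate ended the calls of Malt1 against GFP (limma adjusted p = 0.0528) and against AML1/ETO (0.0692). Testing every probe set ended the first (0.0518).

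Of 14 other inhibitors and brakes, 2 rose and 2 fell with AML1/ETO (14.3% each), near the 12.9% and 15.8% of all genes. Otud7b, a deubiquitinase, rose 1.57-fold (limma adjusted p = 0.00617) and Tnip1, a partner of A20, rose 1.36-fold (0.0212). Sigirr, a receptor that dampens interleukin-1 signals, fell 1.96-fold (8.57e-05), and Irak3, the inactive kinase IRAK-M, fell 1.41-fold (0.0402). With W692A 1 rose and 3 fell (7.14% and 21.4%, where 5.45% and 9.07% of all genes did). Irak3 fell at least 1.89-fold (limma adjusted p = 0.000263), Nlrc5, a regulator reported to restrain the kinase complex, fell 1.67-fold (0.00658), Sigirr fell 1.42-fold (0.0185) and Commd1, a protein that promotes the breakdown of Rela, rose 1.39-fold (0.0464). W692A was lower than AML1/ETO for 5 of 14 and higher for 1 (35.7% and 7.14%), where 11.1% and 9.61% of all genes were. Among the 5 were Nlrc5 (2.05-fold, limma adjusted p = 0.000328), Otud7b (1.55-fold, 0.00773) and Irak3 (at least 1.34-fold, 0.0138), and the 1 was Sigirr (1.38-fold, 0.0226). Leaving out 1 array ended the calls of Tnip1 (GFP replicate 1 or 2 or AML1/ETO replicate 2, adjusted p = 0.0603 to 0.113) and Irak3 (GFP replicates 1 to 3 or AML1/ETO replicates 2 and 3, 0.0665 to 0.130) with AML1/ETO, of Sigirr (GFP replicates 2 and 3 or W692A replicate 2, 0.0521 to 0.0910) and Commd1 (any of 7 arrays, GFP replicates 1 to 3, AML1/ETO replicate 1 and W692A replicates 1, 2 and 4, 0.0567 to 0.141) with W692A, and of Irak3 (AML1/ETO replicate 1, 0.0674) and Sigirr (AML1/ETO replicates 1 and 2 or W692A replicate 3, 0.0614 to 0.103) between the constructs. A covariate ended those of Otud7b (spike-in, 0.169), Irak3 (spike-in, 0.170) and Tnip1 (Gapdh, 0.224) with AML1/ETO, of Nlrc5 (0.237), Sigirr (0.571) and Commd1 (0.831) with W692A (Gapdh), and of Otud7b (0.0613) and Sigirr (0.0969) between the constructs (spike-in). Values raised to the bound ended those of Nlrc5 (0.0611), Sigirr (0.0665) and Commd1 (0.155) with W692A and of Sigirr (0.0660) between the constructs, quantile normalization that of Sigirr with W692A (0.0765), and the mean of probe sets that of Irak3 between the constructs (-0.22, 0.228) and that of Commd1 (0.0545) with W692A. With the mean of its probe sets the difference of Irak3 between W692A and GFP was -0.60. The call of Commd1 with W692A was also lost with the spike-in covariate (limma adjusted p = 0.0518) and when every probe set was tested (0.0578). That of Irak3 with AML1/ETO was lost with a trended, robust variance prior (0.0525).

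Of 29 measured genes reported as NF-kappaB targets, 12 rose and 5 fell with AML1/ETO (41.4% and 17.2%, where 12.9% and 15.8% of all genes did). The median log2 difference of the list was 0.30. Of those that rose, Junb had all group means below the bound. The neutrophil-attracting chemokine genes Cxcl2 (75.4-fold) and Cxcl1 (9.51-fold) and the cytokine gene Il15 (at least 12.4-fold, all GFP arrays below the bound) were among those that rose, with limma adjusted p of at most 8.98e-08. Ccr7, a chemokine receptor (1.88-fold, limma adjusted p = 0.00775), Irf1, a transcription factor of the interferon response (1.65-fold, 0.000134), and Gadd45b, a stress gene (1.55-fold, 0.0195), fell. With W692A 6 of 29 rose and 8 fell (20.7% and 27.6%, where 5.45% and 9.07% of all genes did), with a median of -0.01. Cxcl2 rose 12.3-fold, Il15 at least 4.49-fold and the monocyte chemokine gene Ccl2 2.41-fold (limma adjusted p = 5.46e-08, 3.50e-08 and 0.00541). Il6 fell 2.57-fold (limma adjusted p = 0.0158), Ccr7 2.43-fold (0.00104) and Cd83, a surface protein of activated cells, 2.08-fold (0.0114). W692A was lower than AML1/ETO for 12 of 29 (41.4%) and higher for 0, where 11.1% and 9.61% of all genes were. Among the 12 were Cxcl2 (6.11-fold), Cxcl10 (at least 4.96-fold) and Cxcl1 (4.76-fold), with limma adjusted p of at most 8.08e-06. With AML1/ETO the calls of Ccr7 and Gadd45b were lost without GFP replicate 1 (0.0504 and 0.0951), with the spike-in covariate (0.0560 and 0.304) and with values under the bound raised to it (0.0799 and 0.106), and that of Gadd45b without AML1/ETO replicate 3 (0.0603). With W692A, Il6 was lost without GFP replicate 1 or 2 (0.0527 and 0.0666) and with the Gapdh covariate (difference 0.09, 0.970), Cd83 without GFP replicate 1 (0.0802) and with the Gapdh covariate (0.143), and both, with Ccl2, when values under the bound were raised to it (0.158, 0.122 and 0.0885), while with the Gapdh covariate the difference of Ccl2 was 2.25.

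**Figure D4:**
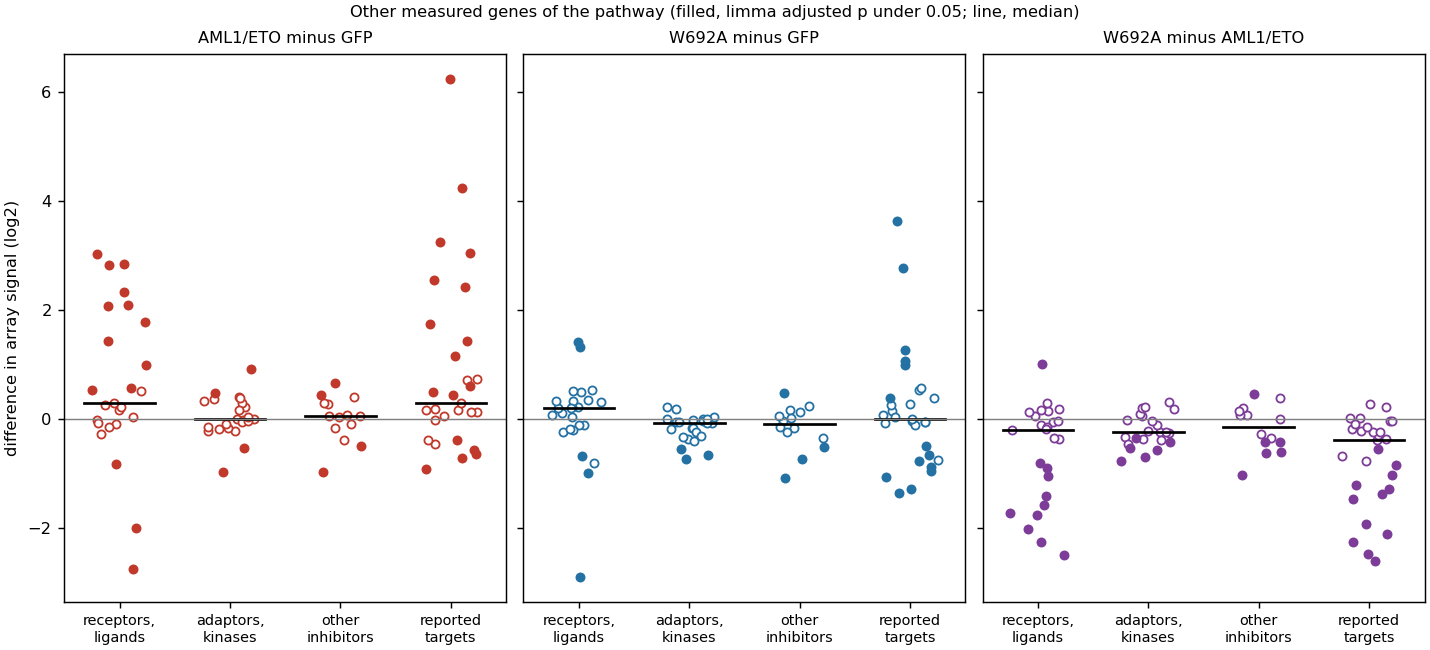
Log2 difference in array signal of every measured gene of the 4 lists in each comparison (points; filled where the adjusted p is under 0.05) with the list median (line). Receptors, ligands and reported targets spread upward with AML1/ETO (medians of 0.30 and 0.30). With W692A 12 of 29 targets were lower than with AML1/ETO (41.4%, where 11.1% of all genes were).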

How the data were processed

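Arrays were hybridised with RNA that, per the labels' protocols, was amplified from 50 ng per sample in more than 1 round, which favours 3′ ends. The authors deposited log2 signals from RMA, named without a version in the submitters' processing notes. That the logarithm has base 2 was inferred from the range of the values (-0.18 to 12.77).

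Of 45101 probe sets, 34945 had 1 gene symbol by the platform annotation. For 34741 of these the symbol was taken from GRCm38.p6 by gene identifier, whether or not it differed. For each of 18193 genes the brightest probe set on average was used. Groups were compared with limma 3.58.1 (R 4.3.3, lmFit and eBayes, 1 model of 3 groups with 7 residual degrees of freedom and 7.53 from the prior), which was checked on simulated data, with Benjamini-Hochberg adjustment over all genes. The number of arrays limits the precision.

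Where the dimmer group had any array under the background bound, set by 27 bacterial control probe sets, the fold is a minimum for which such values were raised to the bound. The p-value beside such a fold comes from the fit on the values as deposited. All 9 measured members are described, and from each list the up to 3 called genes with the highest and 3 with the lowest fitted difference, among those brighter than the bound on average in a group. The members and lists were chosen with earlier results of these data known. Some listed genes, among them Irak4, Ripk1, Traf3, Chuk and Bcl2a1a, are not analysed here.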

Additional observations from a re-analysis of the deposited data

Results flagged for a closer look

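Over the 4 W692A arrays, Nfkbie was 6.32 on replicate 2 against 6.58 to 6.60 on the other 3, a gap of 0.93 of the group's range. It was the only 1 of the 39 genes named here whose W692A arrays passed the 95% limit of Dixon's test, which chance passes in about 1 of 20 groups. Without that array Nfkbie passed between W692A and AML1/ETO, as given above.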

How the results depend on the processing

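Each comparison was repeated under 12 other ways of processing and without each array in turn. The number of NF-kappaB genes called for W692A against GFP fell from 4 to 2 after further quantile normalization, with the Gapdh covariate and with values under the bound raised to it, and that for W692A against AML1/ETO fell from 6 to 3 with values raised to the bound. Values were raised over all genes, which also changed the SE and adjusted p of genes with no array under the bound. For Rel against GFP the difference stayed at -0.70 while its SE went from 0.208 to 0.261. Apart from those of Relb, every call given as lost this way kept its log2 difference. Leaving out 1 array gave 3 to 5 called genes for AML1/ETO against GFP, 2 to 4 for W692A against GFP (2 without GFP replicate 1 or 3 or W692A replicate 4) and 3 to 7 for W692A against AML1/ETO (3 without AML1/ETO replicate 1). Whether replicate numbers pair the arrays is not settled, and the main fit leaves them out. Deviations of same-numbered arrays from their group means correlated at -0.12 to 0.44 (median 0.01), below 0.1 for 5 of 9 pairs. Those of different numbers correlated at -0.38 to 0.30 (median -0.06), and not every array correlated best with its own number. The pairs of replicate 1 arrays lay at 0.26 to 0.44. The replicate block gave 4, 4 and 7 called genes, with Nfkbia (0.42, limma adjusted p = 0.0390) added between the constructs, and ended the calls of Il6 (0.0557), Malt1 (0.0970) and Commd1 (0.0524) for W692A against GFP and of Malt1 between the constructs (0.0638). Over all genes the Gapdh covariate gave 506 calls for W692A against GFP, where 2642 were called without it. The gap was 4.83 to 4.99 on GFP arrays and 3.81 to 4.17 on W692A arrays, so this fit can hardly tell gap and group apart. The difference of Nfkbie went from -0.63 ± 0.114 to -0.71 ± 0.201 (SE), and that of Il1b from 1.32 ± 0.338 to 0.06 ± 0.419. This limit applies to every W692A call against GFP given as lost with this covariate, and the causes were not tested.

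Signs turned for these differences. For AML1/ETO against GFP, Relb was 4e-04 after quantile normalization, 0.0397 with array weights and 0.44 with the spike-in covariate. Nfkb2 was -0.0099 with the array median subtracted and -0.19 with Gapdh, where Rel was -0.29. For W692A against GFP, Nfkbiz was 0.19 with the mean of probe sets and 0.13 and 0.79 on its other, dim probe sets, and Il6 was 0.0898 with Gapdh. The other Tnfaip3 probe set gave -0.16, 0.0445 and 0.21 in the order of the comparisons above. Without 1 array, the AML1/ETO difference ran from -0.0961 to 0.20 for Nfkb2, -0.16 to 0.37 for Rel and -0.16 to 0.23 for Relb, and the W692A difference of Bcl3 from -0.011 to 0.13. Signals near the bound, as for Relb and the dimmer Nfkbiz and Nfkb2 probe sets, limit what can be read.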

Other observations

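In each of the 3 groups replicate 1 gave the highest signal for Nfkbia, Nfkbie, Rel and Tnfaip3, 4 of the 9 genes. The share of all genes with this order was not counted, so the order cannot be read as particular to these genes. For Rel these values were 3.97 with GFP, 4.59 with AML1/ETO and 3.57 with W692A, and for Tnfaip3 they were 7.07, 7.38 and 6.27. Over genes above the background bound, deviations of the replicate 1 arrays from their group means correlated at 0.27 (GFP and AML1/ETO), 0.26 (GFP and W692A) and 0.44 (AML1/ETO and W692A). The labels do not say whether a replicate number marks a shared day or batch. Bcl3, Rela and Relb did not show this order.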
